A study of Mus musculus with 36 samples.

Results

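The imprinted genes of the mouse, which are expressed from only 1 parental allele in at least some tissues, were followed in articular cartilage after surgical induction of osteoarthritis. A list of 39 imprinted genes was taken by name. For each gene the RefSeq transcript row with the highest mean count over 12 RNA libraries was used. For 5mC, all CpG cytosines were taken that lay within 5 kb of the gene and had at least 10 reads in all 6 oxidative bisulfite (oxBS) libraries of a week. Of the 39 genes, 38 had a counted row among 30048 transcript rows, and all 39 had covered cytosines, 3027 at 4 weeks and 2726 at 12 weeks of 1444973 and 1273121 in all. No counted row was paired with H19 by the reference annotation, so the RNA of H19 was not analysed here, whereas its cytosines were. The rule uses no comparison between limbs or weeks.

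All samples came from male C57BL/6J mice whose right knee had destabilization of the medial meniscus (DMM), an operation that destabilizes the joint and leads to cartilage damage, while the left knee was not operated and served as the control. Mice were 12 weeks old at surgery. Cartilage of the tibial plateaus and femoral condyles was microdissected 4 or 12 weeks later, with 3 knees pooled in each library. Each assay had 3 control and 3 DMM libraries per week, and RNA and DNA were taken from different mice. Both limbs came from the same mice and their libraries are numbered alike, but it is not stated that a control and a DMM pool of equal number hold the same animals. There were no sham-operated or untouched mice, so the control limb was a limb of an operated animal. The 12-week mice were also older. Time after surgery, age, the animals used and any difference in library preparation between the weeks therefore cannot be told apart. DNA libraries were pooled before oxidation and bisulfite treatment, and it is not stated which libraries shared a pool. C57BL/6J is inbred, so neither assay separates the parental alleles, and imprinting itself was not measured.

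Imprinted genes lie in clusters that are governed by imprinting control regions, CpG-rich stretches that carry 5-methylcytosine (5mC) on only 1 parental copy. In a pool of cells that kept the imprint such a region is methylated on about 50% of its DNA copies, at each of its CpGs alike. Most control regions are methylated on the maternal copy and lie at a promoter, often that of a long noncoding RNA such as Airn or Kcnq1ot1 that silences its neighbors on the paternal copy. A smaller group, which includes the control regions of H19 and of the domain of Dlk1 and Meg3, is methylated on the paternal copy. Some promoters inside imprinted domains, such as that of Nesp in the Gnas locus, carry paternal 5mC without being control regions. Many of the genes regulate growth, among them the growth factor Igf2, its clearance receptor Igf2r, the cell cycle inhibitor Cdkn1c and the adaptor Grb10, and most are high in the fetus and decline after birth.

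Total counts of the RNA libraries were 27706547 to 62737656, and the oxBS libraries covered 1463987 to 2186301 cytosines at median depths of 22 to 102 reads. All 12 chondrocyte markers (Col2a1, Acan, Sox9 and others) were detected in each group, with a summed level of 7422 to 23392 CPM over the 12 RNA libraries. CPM are counts scaled by library size after adjustment with TMM, a normalization between libraries. Other tissue was present as well. All 12 skeletal muscle markers were detected in each group. They summed to 6414 to 23548 CPM in the 4-week control libraries, 593 to 3857 in the 4-week DMM libraries, 95.6 to 15941 in the 12-week control libraries and 579 to 12058 in the 12-week DMM libraries. All 5 osteoblast markers were detected, and their sum was 3499 to 5742 CPM in control and 6800 to 8027 in DMM libraries at 4 weeks, and 2041 to 3303 and 3892 to 5577 at 12 weeks. In such bulk samples fewer cells of a type and less RNA per cell cannot be told apart.

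CpG cytosines with at least 10 reads in all 12 oxBS libraries were joined into clusters of at least 5 cytosines at gaps of at most 100 bp. Near the imprinted genes 124 such clusters were found. A mean 5mC between 35 and 65% was found in 35 of them, which is 28.2% of the clusters near these genes. Among all 53733 clusters of the genome the same band held 5940, or 11.1%. By single cytosines, 663 of 2549 near the imprinted genes (26.0%) and 8.55% of all 1212709 lay in the band. The band was the mark used for imprinted regions, so that these shares describe the regions and were not tested. Cytosines of 1 cluster were also closer to each other in 5mC in these 35 clusters than in the other near-50 clusters. This does not hold against all clusters, most of them outside the band, whose median SD over cytosines was 2.95 percentage points. The SD over the cytosines of a cluster had a median of 4.73 percentage points in the 35 clusters and of 11.8 in the 5905 other near-50 clusters of the genome, and every cytosine lay in the band in 15 of 35 (42.9%) against 15.1% of the others.

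The regions differed by their distance from a transcription start. A distance of 5 kb, chosen after the values were seen, separated 27 clusters at or near the start of an imprinted gene from 8 that lay further away in a gene body. The median SD over cytosines was 3.74 points in the 27 and 10.4 in the 8. Sequences are shown for regions of both kinds, on the forward strand of GRCm38, because 5mC was read at their CpGs. Capitals mark the CpGs that were read. The assay is reduced representation oxBS (RRoxBS), which reads fragments cut by MspI. The first 7 lie at or near a start.
H19, just upstream of its start, at chr7:142578164-142578244: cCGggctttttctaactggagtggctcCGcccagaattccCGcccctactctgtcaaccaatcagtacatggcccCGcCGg
Meg3, upstream of its start, at chr12:109540892-109540943: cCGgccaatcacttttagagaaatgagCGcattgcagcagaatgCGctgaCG
Kcnq1ot1, in its transcribed part, at chr7:143295374-143295619: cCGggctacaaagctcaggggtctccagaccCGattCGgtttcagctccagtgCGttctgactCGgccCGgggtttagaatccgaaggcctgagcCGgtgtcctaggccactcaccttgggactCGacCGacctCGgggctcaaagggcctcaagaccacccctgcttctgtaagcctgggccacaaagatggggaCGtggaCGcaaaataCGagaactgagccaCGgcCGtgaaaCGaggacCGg
Airn, downstream of its start and within an intron of Igf2r, at chr17:12742235-12742378: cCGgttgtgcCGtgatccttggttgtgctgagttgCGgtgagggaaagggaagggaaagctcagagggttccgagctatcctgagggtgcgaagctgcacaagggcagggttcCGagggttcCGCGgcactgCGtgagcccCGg
Mest, in the first part of the gene, at chr6:30739253-30739335: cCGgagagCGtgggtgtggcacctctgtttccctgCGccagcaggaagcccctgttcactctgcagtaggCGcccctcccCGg
Grb10, in an intron, at chr11:12026184-12026346: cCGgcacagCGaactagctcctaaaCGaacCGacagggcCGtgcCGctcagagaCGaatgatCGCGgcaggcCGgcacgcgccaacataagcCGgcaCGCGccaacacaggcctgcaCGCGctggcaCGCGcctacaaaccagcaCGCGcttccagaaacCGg
Gnas, upstream of the Nesp start, at chr2:174284176-174284272: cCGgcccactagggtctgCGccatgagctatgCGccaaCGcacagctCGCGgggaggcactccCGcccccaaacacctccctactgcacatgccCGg
The other 5 lie in gene bodies.
Airn and Igf2r intron, at chr17:12751282-12751365: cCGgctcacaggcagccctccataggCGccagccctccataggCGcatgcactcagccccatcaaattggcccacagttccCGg
Usp29 intron, at chr7:6781823-6782053: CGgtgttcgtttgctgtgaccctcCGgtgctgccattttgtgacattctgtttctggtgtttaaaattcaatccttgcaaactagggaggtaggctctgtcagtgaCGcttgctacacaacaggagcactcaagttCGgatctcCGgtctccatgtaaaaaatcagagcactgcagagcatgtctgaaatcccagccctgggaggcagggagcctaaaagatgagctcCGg
Ppp1r9a intron, first region, at chr6:5103907-5103967: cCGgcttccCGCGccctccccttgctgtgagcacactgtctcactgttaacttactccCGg
Ppp1r9a intron, second region, at chr6:5139802-5139957: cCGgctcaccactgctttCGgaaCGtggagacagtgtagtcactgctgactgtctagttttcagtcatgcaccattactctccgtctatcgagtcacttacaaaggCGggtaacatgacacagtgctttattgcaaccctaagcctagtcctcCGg
Kcnq1 intron, furthest region, at chr7:143377026-143377084: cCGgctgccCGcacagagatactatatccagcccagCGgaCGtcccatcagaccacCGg
Printed stretches run 1 base beyond the outer cytosines. The letters TGCCGC on either strand (GCGGCA in reverse), the core that the imprint-keeping zinc finger protein ZFP57 is known to bind when methylated, occurred 2 times in the Grb10 stretch, 1 time in the Airn stretch at the start, and in none of the other stretches printed. In windows of 300 bases at the cluster centers, 11 of the 27 start clusters (40.7%) and 0 of the 8 gene body clusters held it. So did 24 of the 89 clusters near imprinted genes outside the band, 8.81% of the other near-50 clusters and 17.8% of all clusters. The core contains a CpG, and the sets differed in how densely cytosines were read. The median per 100 bases was 6.67, 4.83, 9.51, 5.68 and 7.69 in the same order, and the part of this density was not tested. A match describes the letters of the window and not a bound site.

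Regions known to be methylated on the paternal copy were near 50% at H19, Meg3 and the Nesp promoter. H19 encodes a growth-restraining noncoding RNA, and its promoter cluster at chr7:142578165-142578243 (6 cytosines, mean 42.7%) lay upstream of the first exon. H19 5mC was 39.3, 44.9 and 44.4% in control and 41.2, 47.7 and 43.2% in DMM libraries at 4 weeks, and 36.1, 42.4 and 42.3% and 45.97, 36.1 and 48.8% at 12 weeks. The groups overlapped in both weeks. In all 12 libraries 14 cytosines were read within 5 kb of H19, and the other 8, downstream of the gene, in it and upstream of it, were at 3.39 to 73.4%. Among these 8, the cytosines furthest upstream, at chr7:142581187 and chr7:142581230, were at 44.2 and 59.1%. Meg3, a maternally expressed noncoding RNA of the Dlk1 domain, had 8 cytosines between 405 and 54 bases upstream of its start, at chr12:109540591-109540942. They were too far apart to form a cluster. Their mean 5mC was 46.9%, with 41.3 to 51.5% for single cytosines. Library means were 51.7, 41.8 and 52.1% in control and 47.5, 58.3 and 43.1% in DMM libraries at 4 weeks, and 44.6, 49.8 and 47.4% and 42.9, 39.5 and 43.9% at 12 weeks. The DMM minus control difference was 1.12 points at 4 weeks (exact permutation test, two-sided, p = 0.9), -5.19 at 12 weeks (exact permutation p = 0.1, the smallest that 3 against 3 libraries allow) and -2.04 over both weeks (exact permutation within weeks, p = 0.52). The intergenic control region of this domain and the control region upstream of Rasgrf1 lie outside the windows used here.

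Gnas, which encodes the stimulatory G protein subunit alpha and its variants, showed 4 kinds of promoter in 1 locus. At the Nesp start, a promoter known to be methylated on the paternal copy, the cluster at chr2:174284177-174284271 (10 cytosines, mean 42.3%) had 42.6, 38.1 and 47.8% in control and 46.1, 44.4 and 42.6% in DMM libraries at 4 weeks, and 44.1, 44.5 and 34.4% and 44.2, 36.6 and 42.7% at 12 weeks. Nesp sequence further downstream stayed at that level, at chr2:174284689-174284852 (24 cytosines, mean 44.9%), at chr2:174285562-174285724 (9 cytosines, mean 45.4%) and at chr2:174287606-174287816 (8 cytosines, mean 43.8%). The XL start, known to be methylated on the maternal copy, had a cluster at chr2:174298019-174298310 (16 cytosines, mean 42.3%), with 45.9, 40.5 and 40.2% in control and 40.5, 38.2 and 42.9% in DMM libraries at 4 weeks, and 46.9, 42.4 and 44.1% and 40.7, 44.1 and 40.9% at 12 weeks. Another 3 clusters of the XL exon followed at chr2:174299003-174299143 (13 cytosines, mean 40.2%), at chr2:174299355-174299654 (20 cytosines, mean 40.2%) and at chr2:174299857-174300094 (26 cytosines, mean 39.4%). Exon 1A, the maternally methylated element that controls the main promoter, was lower, at chr2:174327850-174328003 (20 cytosines, mean 35.1%), with 36.6, 34.5 and 31.9% in control and 32.3, 42.8 and 34.5% in DMM libraries at 4 weeks, and 32.4, 34.5 and 35.9% and 37.1, 34.9 and 34.2% at 12 weeks. The 3 clusters at the main Gnas start had mean 5mC of 0.510, 0.585 and 0.601%. Of the 9 near-50 clusters at the upstream starts of Gnas, 8 overlapped between limbs in both weeks. Over all 5940 near-50 clusters the limbs were apart in 8.13% at 4 weeks, and at 12 weeks DMM was below control in 33.9% and above in 7.78%. The exception was the second Nesp cluster, where the 3 DMM libraries were above the 3 control libraries at 12 weeks by 5.20 points in the mean.

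**Figure D1:**
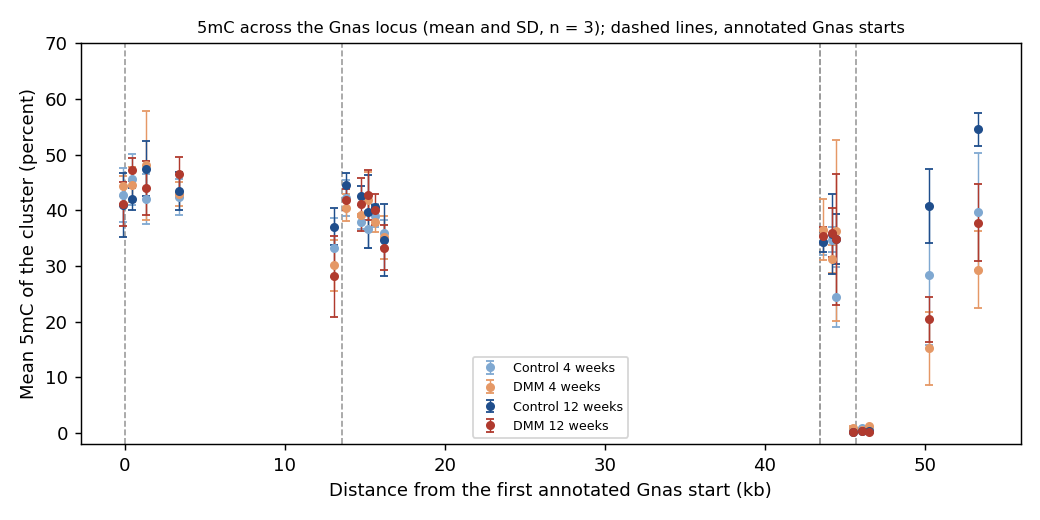
Mean 5mC of each CpG cluster of the Gnas locus (vertical axis, percent) against the distance from the first annotated start (horizontal axis, kb), as group mean and SD of 3 libraries, with annotated starts as dashed lines. Most clusters of the 3 upstream starts have the 4 groups close together, and the main start is close to 0. The last 2 clusters, inside the gene, separate the limbs at 12 weeks with DMM lower, and the second Nesp cluster does so with DMM higher. Outside the band, the cluster at chr2:174297352-174297431 was lower in DMM libraries at 12 weeks (log2 ratio -0.59, limma adjusted p = 0.347). That at chr2:174328738-174328781 was higher at 4 weeks (log2 ratio 0.74, limma adjusted p = 0.801).

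Control regions known to be methylated on the maternal copy lay in the same band. Peg3 is a zinc finger protein gene, and its exon cluster at chr7:6730262-6730328 (8 cytosines, mean 47.2%) had 49.1, 49.5 and 42.9% in control and 46.8, 45.3 and 46.3% in DMM libraries at 4 weeks, and 50.3, 43.9 and 43.97% and 42.7, 50.5 and 54.9% at 12 weeks. Snrpn, the start of the Prader-Willi domain, had 48.9, 47.6 and 43.1% in control and 46.5, 45.8 and 45.5% in DMM libraries at 4 weeks, and 43.9, 52.7 and 40.96% and 41.03, 48.6 and 33.6% at 12 weeks at chr7:60005043-60005229 (7 cytosines, mean 44.9%), which overlaps an exon. Kcnq1ot1, the noncoding RNA that silences the Cdkn1c domain on the paternal copy, had 43.2, 45.4 and 49.99% in control and 42.5, 39.5 and 40.97% in DMM libraries at 4 weeks, and 44.9, 48.4 and 40.1% and 46.1, 39.5 and 39.6% at 12 weeks at chr7:143295375-143295618 (19 cytosines, mean 43.3%). Control and DMM libraries were interleaved in these regions apart from Kcnq1ot1 at 4 weeks, where the 3 DMM libraries lay below the 3 control libraries. In limma no p of these regions was under 0.05.

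Plagl1, a zinc finger regulator of other imprinted genes, had the longest of these clusters, which covers its start at chr10:13090765-13091189 (52 cytosines, mean 43.9%). All 52 cytosines lay between 39.2 and 48.2%. Library means of Plagl1 were 44.01, 42.7 and 43.02% in control and 43.5, 48.7 and 44.3% in DMM libraries at 4 weeks, and 39.9, 45.03 and 40.3% and 43.03, 47.3 and 45.5% at 12 weeks. Mest, an enzyme of the alpha/beta hydrolase family, had 39.9, 49.2 and 39.7% in control and 44.7, 47.9 and 42.4% in DMM libraries at 4 weeks, and 38.1, 44.5 and 36.1% and 46.5, 34.96 and 40.1% at 12 weeks in an intron at chr6:30739254-30739334 (6 cytosines, mean 42.01%). Peg10, a retrotransposon-derived gene whose control region is shared with Sgce, had 36.4, 44.5 and 44.4% in control and 47.3, 40.3 and 43.4% in DMM libraries at 4 weeks, and 43.9, 42.6 and 41.6% and 37.97, 44.99 and 42.4% at 12 weeks at chr6:4747355-4747490 (12 cytosines, mean 42.5%), in an exon. The limbs overlapped in these 3 regions in both weeks.

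Airn, the noncoding RNA that silences Igf2r, had 38.2, 34.6 and 31.1% in control and 37.3, 35.8 and 42.5% in DMM libraries at 4 weeks, and 45.01, 33.9 and 43.2% and 41.9, 37.6 and 38.9% at 12 weeks at chr17:12742236-12742377 (8 cytosines, mean 38.3%). Impact, a regulator of translation, had its cluster in an intron, at chr18:12973131-12973506 (24 cytosines, mean 44.4%). It was at 37.8, 45.3 and 44.8% in control and 45.9, 53.7 and 47.2% in DMM libraries at 4 weeks, and 47.8, 41.1 and 40.2% and 42.8, 40 and 45.8% at 12 weeks. All 3 DMM libraries of Impact were above the control libraries at 4 weeks, by 6.32 points in the mean, and the limbs overlapped at 12 weeks. Nnat, a membrane proteolipid that lies in an intron of Blcap, had 46.6, 47.5 and 42.3% in control and 43.8, 46.8 and 46.5% in DMM libraries at 4 weeks, and 51.2, 46.5 and 40.7% and 51.5, 43.2 and 47.5% at 12 weeks at chr2:157560098-157560478 (21 cytosines, mean 46.2%). Its second cluster followed at chr2:157561444-157561620 (10 cytosines, mean 52.6%). By contrast, both clusters at the Blcap start were close to 0, with mean 5mC of 0.477 and 0.544%.

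Zrsr1, a splicing factor retrogene within Commd1, had 53.6, 45.5 and 41.8% in control and 44.6, 42.5 and 44.7% in DMM libraries at 4 weeks, and 43.1, 47.2 and 37.9% and 40.01, 42.1 and 43.7% at 12 weeks at chr11:22971902-22972264 (24 cytosines, mean 43.9%), over its start. The cluster over an internal start of Commd1, a copper and NF-kappaB regulator, had 39.4, 35.4 and 37.1% in control and 37.2, 41.5 and 42.7% in DMM libraries at 4 weeks, and 32.7, 37.7 and 36.3% and 44.7, 36.9 and 38.5% at 12 weeks at chr11:22972581-22972993 (20 cytosines, mean 38.3%). Grb10 had 45.3, 36.2 and 34.7% in control and 39.8, 41.5 and 36.95% in DMM libraries at 4 weeks, and 51.7, 42.4 and 43.9% and 35.7, 39.4 and 40.7% at 12 weeks at chr11:12026767-12026881 (10 cytosines, mean 40.7%), where the DMM libraries were lower at 12 weeks by 7.40 points in the mean. Its larger cluster at chr11:12026185-12026345 (28 cytosines, mean 38.3%) had 45.4, 37.8 and 42.8% in control and 36.7, 32.9 and 36.2% in DMM libraries at 4 weeks, and 38.8, 48.3 and 36.2% and 37.7, 34.9 and 31.6% at 12 weeks, with a DMM minus control difference of -6.76 points at 4 weeks, where the limbs did not overlap, and -6.40 at 12 weeks, where they did. In the limma test over both weeks this cluster alone among the 27 at a start had an unadjusted p under 0.05 (adjusted p = 0.262).

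Other regions of these domains lay inside and outside the band. Magel2, a ubiquitin ligase regulator of the Prader-Willi domain, had 50.9, 56.4 and 61.2% in control and 55.9, 53.4 and 59.4% in DMM libraries at 4 weeks, and 56.3, 60.7 and 50.6% and 54.9, 48.3 and 55.7% at 12 weeks at chr7:62377691-62377819 (8 cytosines, mean 55.3%), whereas the cluster nearer its start was at 30.4%. The start clusters of Mkrn3 and Peg12 of the same domain were at 23.0 and 24.6% and at 20.5, 25.7 and 21.2%. Igf2r had 28.3 and 30.4% at its own start, and clusters 713 and 1142 bases downstream of the Cdkn1c start had 32.1 and 33.2%. Upstream of Cdkn1c a cluster at chr7:143465340-143465472 (7 cytosines, mean 36.6%) had 34.7, 37.6 and 35.6% in control and 37.9, 39.4 and 38.8% in DMM libraries at 4 weeks, and 30.03, 36.2 and 46.3% and 31.4, 35.97 and 35.1% at 12 weeks, and its DMM libraries were above control at 4 weeks by 2.75 points. Rian, a noncoding RNA of the Dlk1 domain, had 47.5, 43.2 and 44.8% in control and 41.6, 43.3 and 37.95% in DMM libraries at 4 weeks, and 46.5, 52.3 and 56.8% and 45.5, 61.04 and 55.6% at 12 weeks at chr12:109608071-109608202 (7 cytosines, mean 48.0%), in an intron. In contrast, clusters at or near the starts of Ube3a (0.189%), Phlda2 (0.656%), Igf2 (0.911%), Ppp1r9a (0.973%), Dlk1 (1.15%), Dio3 (1.51%), Rasgrf1 (1.58%), Zim1 (1.62%), Ascl2 (1.87%) and Kcnq1 (2.71%) carried almost no 5mC. Zdbf2 had 93.3% at its first start and 2.09% at a later one.

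The 8 near-50 clusters in gene bodies did not hold a fixed level. They lay within introns of Airn and Igf2r at chr17:12751283-12751364 (5 cytosines, mean 36.3%), of Usp29 at chr7:6781824-6782052 (7 cytosines, mean 49.1%) and of Ppp1r9a at chr6:5103908-5103966 (6 cytosines, mean 36.7%) and at chr6:5139803-5139956 (5 cytosines, mean 60.7%). Further ones lay within introns of Kcnq1 at chr7:143325179-143325369 (10 cytosines, mean 46.6%), at chr7:143340645-143340915 (12 cytosines, mean 62.3%) and at chr7:143377027-143377083 (8 cytosines, mean 49.2%), and in an exon of Gnas at chr2:174337544-174337711 (6 cytosines, mean 40.4%). The Airn and Igf2r intron had 46.7, 26.7 and 37.5% in control and 30.1, 14.9 and 25.5% in DMM libraries at 4 weeks, and 49.8, 47.1 and 58.5% and 29.8, 28.4 and 41.1% at 12 weeks, so that every 12-week DMM library was below the 12-week control libraries. Usp29, a ubiquitin peptidase gene, had 60.5, 40.1 and 46.5% in control and 43.2, 33.7 and 36.96% in DMM libraries at 4 weeks, and 60.5, 63.05 and 64.5% and 41.8, 53.1 and 45.8% at 12 weeks in its intron, with the same separation at 12 weeks. The Gnas exon had 49.7, 28.8 and 40.8% in control and 33.9, 21.3 and 32.9% in DMM libraries at 4 weeks, and 55.5, 56.96 and 51.2% and 34.4, 45.7 and 33.3% at 12 weeks, and again all 3 DMM libraries were lower at 12 weeks. The first Ppp1r9a intron region had the opposite order at 12 weeks, with 28.7, 45.4 and 41.4% in control and 35.3, 45.01 and 41.9% in DMM libraries at 4 weeks, and 32.7, 22.9 and 21.3% and 42.3, 43.98 and 39.6% at 12 weeks. Of the 8 clusters 6 had all DMM libraries below all control libraries at 12 weeks, 1 had them above and 1 overlapped. The shares over all near-50 clusters were 33.9% below and 7.78% above, as given for Gnas. At 4 weeks all 8 overlapped, against 8.13% of near-50 clusters apart in either direction.

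**Figure D2:**
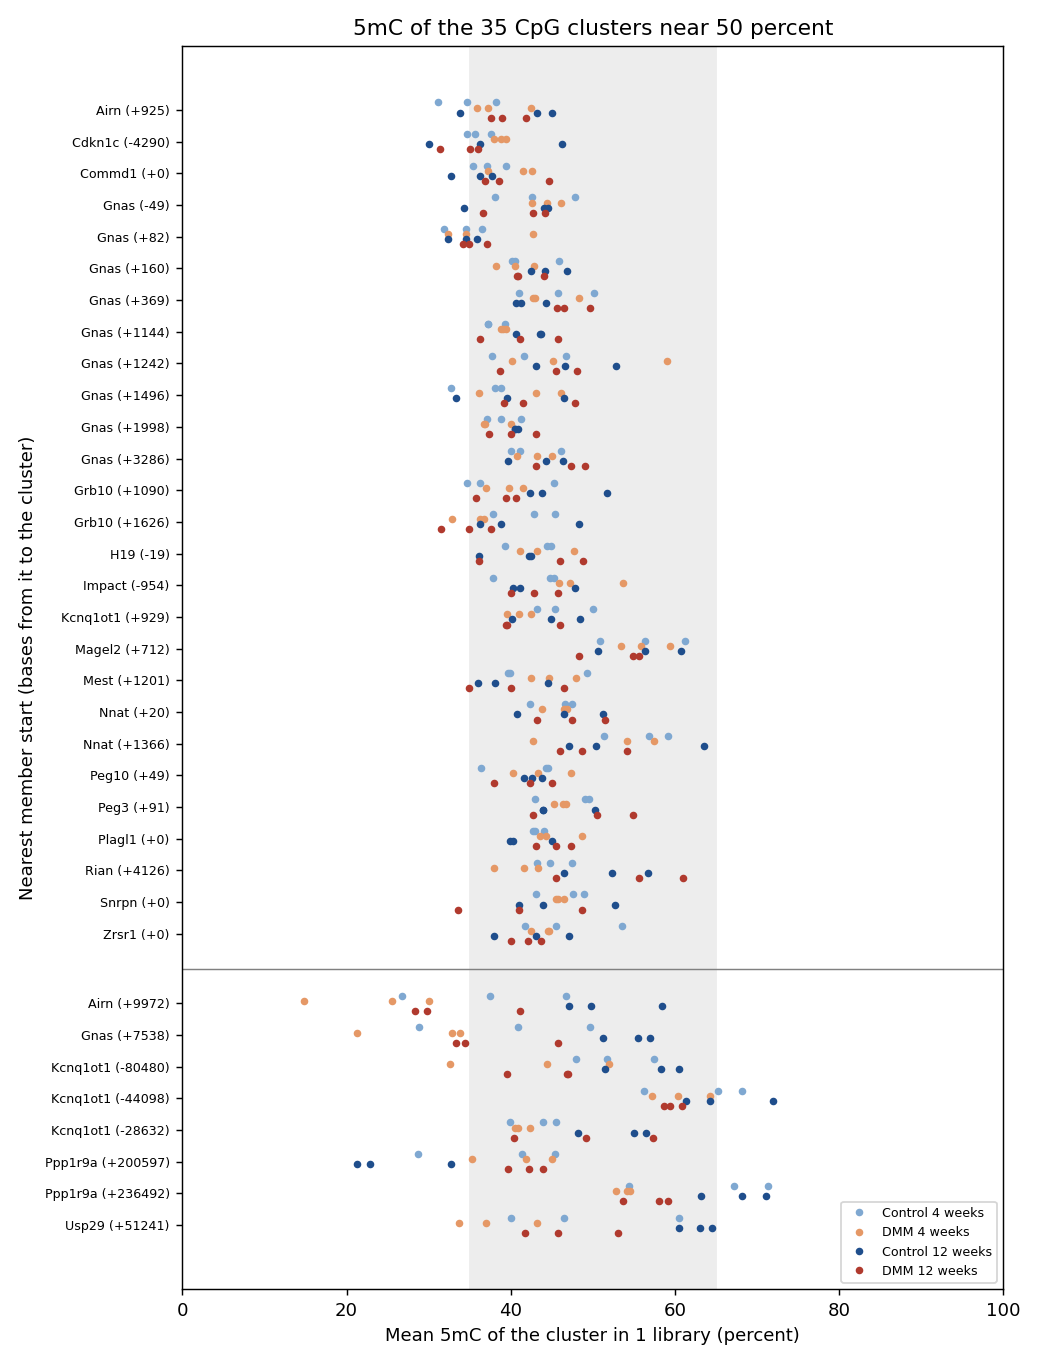
Mean 5mC (horizontal axis, percent) of each of the 35 near-50 clusters in each library (points, 4 groups by color), named by the nearest start of an imprinted gene and the bases from it. Above the line, the 27 clusters within 5 kb of a start mostly have the groups interleaved, and below it 7 of the 8 in gene bodies separate the limbs at 12 weeks.

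Averaged over the 27 clusters at a start, 5mC was 42.8 ± 1.04% (SD, n = 3) in control and 43.2 ± 0.346% in DMM libraries at 4 weeks, and 43.4 ± 1.502% and 42.9 ± 0.272% at 12 weeks. All 12 libraries fell between 41.6 and 45.0%. Over the 8 gene body clusters it was 48.4 ± 5.59% and 41.3 ± 3.28% at 4 weeks, and 54.7 ± 0.928% and 46.2 ± 2.71% at 12 weeks, where the 3 DMM libraries (44.0 to 49.2%) lay below the 3 control libraries (53.8 to 55.6%). At 4 weeks the values of control and DMM replicates of equal number were 53.5 and 44.4%, 42.5 and 37.9%, and 49.3 and 41.6%, so that DMM was lower at each number although the groups overlapped. In the 5905 other near-50 clusters of the genome they were 55.7 and 50.2%, 48.0 and 46.3%, and 51.3 and 48.3%. These other clusters moved the same way at 12 weeks, from 55.5 ± 0.934% in control to 51.2 ± 1.35% in DMM libraries. The gene body clusters were set apart after their values were seen, so these means are descriptions and carry no test. The DNA libraries hold no measure of cell types, whose part in these values was not tested.

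**Figure D3:**
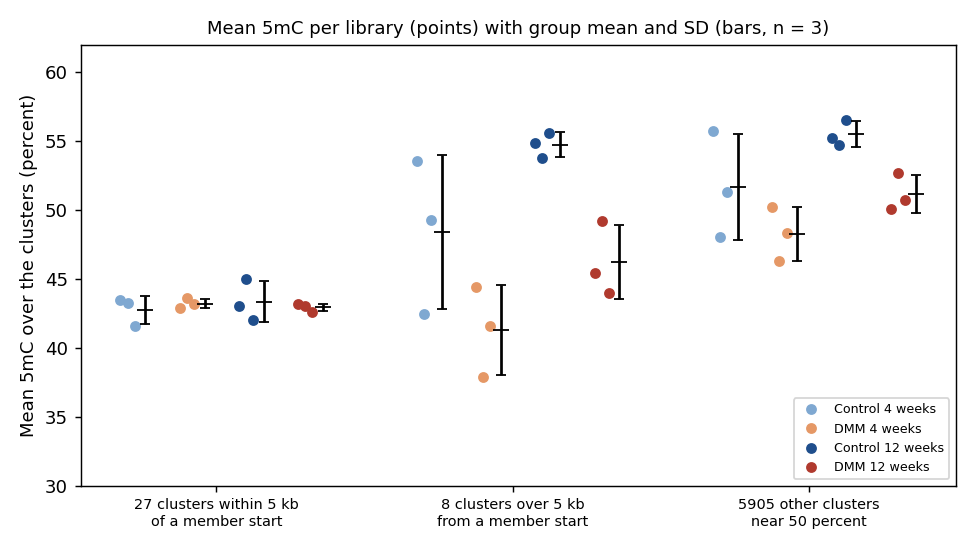
Mean 5mC per library (points, percent) over 3 sets of near-50 clusters, with the group mean and SD of 3 libraries (bars). The start clusters stay between 41.6 and 45.0% in all libraries, while both other sets are lower in DMM than in control libraries at 12 weeks.

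To ask whether 5mC of the near-50 regions differed between limbs, log2 ratios of methylated to unmethylated reads were compared with limma over all 53733 clusters. Over both weeks no cluster passed an adjusted p of 0.05, near the imprinted genes or elsewhere (0%). At an unadjusted p under 0.05 there were 7 of the 35 clusters, 6 lower and 1 higher in DMM libraries, against 43.9% of all 5940 near-50 clusters. Of these 7 clusters 6 were among the 8 in gene bodies. The log2 ratio difference was -0.66 in the second Ppp1r9a region and -1.02 in the Airn and Igf2r intron (limma adjusted p = 0.121 for both). It was -0.79 in the Gnas exon (adjusted p = 0.125), -0.71 in Usp29 (adjusted p = 0.126), -0.62 in the Kcnq1 region furthest from the Kcnq1ot1 start (adjusted p = 0.128) and 0.60 in the first Ppp1r9a region (adjusted p = 0.174).

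Without the second 4-week control library, 6 of the 35 clusters passed, as did 1682 of the 5940 near-50 clusters and 4302 of all clusters. With the replicate number as a block, 5 of the 35, 1551 of the 5940 near-50 clusters and 3922 of all clusters passed with all 12 libraries kept. At 4 weeks 0 of 35 passed (0% of all clusters), and 1 had an unadjusted p under 0.05 against 5.25% of all near-50 clusters. With the block these were 5 of 35 and 31.2%, and again none passed. At 12 weeks 7 of 35 had an unadjusted p under 0.05, against 38.7% of near-50 clusters. There 1 of 35 passed, against 246 of the 5940 near-50 clusters and 1.32% of all clusters. That was the first region of Ppp1r9a, a scaffold gene of synapses. It was 16.3 points higher in DMM than in control libraries (log2 ratio 1.04 ± 0.22 SE, limma adjusted p = 0.0498). By the library values given above, its DMM libraries were at a similar level in both weeks. Its control libraries were on average lower at 12 than at 4 weeks. Among the clusters outside the 35 to 65% band 1 passed as well, in a Gnas intron at chr2:174334518-174334593 (6 cytosines, mean 26.2%). It had 40.4, 34.4 and 47.6% in control and 18.5, 17.7 and 25.1% in DMM libraries at 12 weeks, where all DMM libraries were lower (log2 ratio -1.44 ± 0.26 SE, limma adjusted p = 0.0332). It did not pass on the percent scale, with the replicate block or without any 1 of the 6 libraries of week 12. With the replicate block 0 of 35 and 0 of all clusters passed at 12 weeks. Without any single 12-week library other than DMM replicate 2, 0 of 35 and 0 of all clusters passed. Without DMM replicate 2 there were 2 of 35, beside 221 of the 5940 near-50 clusters. The gene body clusters have 5 to 12 cytosines each, and the exact permutation test over libraries cannot go below p = 0.10 within a week.

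Single cytosines were also compared by pooled reads, at a difference of at least 25 points and q under 0.05. At 4 weeks 0 of 3027 cytosines near the imprinted genes passed, against 0.000554% of all (8 of 1444973). At 12 weeks 3 of 2726 passed, against 0.227% of all. One cytosine at chr6:5103908 in the Ppp1r9a intron had 40, 25 and 0% in control and 55.1, 64.0 and 38.1% in DMM libraries, at 15 to 69 reads, which is a difference of 28.9 points (q = 0.0216). Another at chr7:6781824 in the Usp29 intron had 47.5, 43.5 and 53.8% in control and 10.8, 30.6 and 23.3% in DMM libraries (difference -29.8 points, q = 0.000299). The last at chr7:143154789, in the Kcnq1 gene and in no cluster near 50%, had 53.3, 53.8 and 50% in control and 29.4, 18.5 and 27.3% in DMM libraries (difference -26.6 points, q = 0.0440). The first 2 of these lie in gene body clusters, and none was within 5 kb of the start of an imprinted gene. Pooled reads ignore the spread between libraries, and without DMM replicate 1 of week 12 none of the 2726 passed, against 1640 of 1273121 in all.

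Between weeks, with limbs kept in the fit, 1 of the 35 clusters passed at an adjusted p under 0.05, against 11.6% of all clusters and 414 of the 5940 near-50 clusters. This was a Kcnq1 intron region that was 8.91 points higher at 12 weeks (log2 ratio 0.55 ± 0.17 SE, adjusted p = 0.0484), and another 4 clusters were higher at an unadjusted p under 0.05, of which Rian at 9.89 points was the one within 5 kb of a start (adjusted p = 0.0513). That makes 5 of 35, against 30.9% of all near-50 clusters at this unadjusted level in either direction. Another 5 clusters near the imprinted genes passed, all outside the band and lower at 12 weeks, at mean levels under 1%. They were the 3 at the main Gnas start (log2 ratios -1.66, -1.01 and -1.48), 1 in an intron of Ascl2 (-1.85) and 1 at a start of Commd1 (-1.64), with adjusted p = 0.0115 to 0.0270. The background on mitochondrial DNA was lower at 12 weeks as well. There 0.530 to 0.742% of the reads at CpG cytosines were called methylated in the 4-week oxBS libraries and 0.284 to 0.351% in the 12-week ones, and the part of this background in the 5 calls was not tested. With 1 library left out, 0 to 5 of the 35 passed, and 5 passed without control replicate 1 of week 4, as did 1103 of the 5940 near-50 clusters.

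As a second readout, 5-hydroxymethylcytosine (5hmC), the oxidation product of 5mC made by TET enzymes, was taken as the bisulfite percent minus the oxBS percent at the same cytosines. Over the 460 cytosines of the near-50 clusters that were read in all 24 libraries, it was 3.34 points on average, with 0.733 to 5.21 points in single libraries. DMM exceeded control libraries by 0.567 points (exact permutation within weeks, p = 0.37). The difference was 0.157 without control replicate 1 of week 4, 0.231 without control replicate 2 of week 12 and 0.304 without DMM replicate 1 of week 12. The bisulfite data of the last of these are deposited under another replicate number than the label gives, and the label was followed. Over all 1108861 cytosines the mean was 2.06 points and the difference 0.463 (exact permutation p = 0.025). Values differed between regions. Cdkn1c upstream (12.7 points), the Airn and Igf2r intron (12.2), the Gnas XL start and the second Kcnq1 intron region (9.62 each), the Kcnq1 region furthest from the Kcnq1ot1 start (9.38) and both Grb10 clusters (7.91 and 7.92) were highest, whereas Peg3 (-2.74), Kcnq1ot1 (-1.87), the third Nesp cluster of Gnas (-1.03), the first Nnat cluster (-0.967), Plagl1 (-0.407) and Impact (0.173) were lowest. Negative values can arise when the difference of 2 noisy percentages is taken, and their cause was not tested here. At Peg3 the negative value was nearly as large in size as the mean of 3.34.

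RNA levels of the 38 genes spanned a wide range. Per kb of transcript, Gnas was highest at 300.1 CPM per kb, followed by Commd1 (55.3), Sgce (27.2), Cdkn1c (15.6), Impact (14.1) and Ndn (12.1). At the other end, Rtl1, Zim1, Usp29 and Magel2 had mean counts of 6.42, 3.58, 2.33 and 0.33 per library, and Magel2 was at 0 in 11 of 12. The fetal growth genes were among the low ones, with 10 to 60 counts of Igf2 and 5 to 35 counts of Dlk1 in a library. Igf2 was at 1.43, 0.701 and 0.685 in control and 0.860, 0.625 and 0.368 in DMM libraries at 4 weeks, and 0.234, 0.350 and 0.350 and 0.671, 0.668 and 0.360 at 12 weeks (CPM). Dlk1, a membrane regulator of stem and progenitor cells, was at 0.357, 0.120 and 0.247 in control and 0.712, 0.371 and 0.184 in DMM libraries at 4 weeks, and 0.117, 0.318 and 0.485 and 0.734, 1.15 and 0.584 at 12 weeks. Igf2 was above control in all 3 DMM libraries at 12 weeks, as was Dlk1, at these low counts. Between these extremes, per kb, were Blcap (11.3), Meg3 (9.39), Grb10 (7.35), Ube3a (5.99), Snrpn (3.701), Plagl1 (2.51), Igf2r (2.29), Peg3 (1.96), Mest (1.75) and Airn (1.54). Zrsr1, Nnat, Phlda2, Asb4, Kcnq1ot1, Kcnq1, Mkrn3, Ascl2, Mirg, Rian, Dio3, Rasgrf1, Ppp1r9a, Peg12, Peg10 and Zdbf2 were below 1 CPM per kb. Usp29, Zim1 and Magel2 did not pass the filter on low counts in any comparison, Rtl1 passed it only where all libraries were fitted, Peg10 not at 4 weeks or between weeks, and Nnat and Peg12 not at 12 weeks.

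Gnas was at 838, 729.6 and 589.8 in control and 780.2, 617 and 591 in DMM libraries at 4 weeks, and 244, 376 and 345 and 584, 513 and 384 at 12 weeks (CPM). Commd1 was at 43.7, 40.2 and 45.9 in control and 44.8, 59.1 and 68.4 in DMM libraries at 4 weeks, and 42.7, 40.4 and 37.5 and 35.5, 40.1 and 44.3 at 12 weeks. Sgce, epsilon-sarcoglycan of the membrane, was at 62.7, 53.8 and 29.96 in control and 72.99, 69.6 and 95.5 in DMM libraries at 4 weeks, and 29.1, 30.9 and 22.8 and 37.7, 51.6 and 31.6 at 12 weeks. At 4 weeks all 3 DMM libraries of Sgce were above all 3 control libraries, and the same was true at 12 weeks. Cdkn1c was at 50.3, 27.9 and 18.7 in control and 39.9, 29.97 and 26.01 in DMM libraries at 4 weeks, and 15.98, 27.7 and 16.4 and 34.6, 45.7 and 31.01 at 12 weeks, so that the limbs overlapped at 4 weeks and were apart at 12 weeks. Levels of Impact were 67.2, 59.6 and 38.7 in control and 58.2, 52.6 and 64.4 in DMM libraries at 4 weeks, and 42.1, 54.5 and 30.3 and 52.5, 63.1 and 52.6 at 12 weeks. Sgce was the one gene of these whose limbs were apart in both weeks. Ndn, a growth suppressor of the Prader-Willi domain, was at 37.8, 25.9 and 15.04 in control and 26.6, 22.3 and 22.2 in DMM libraries at 4 weeks, and 10.8, 17.4 and 6.82 and 16.9, 24.6 and 13.7 at 12 weeks.

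Genes with antisense or overlapping partners, among them Igf2r and Airn, Kcnq1 and Kcnq1ot1, Commd1 and Zrsr1, Blcap and Nnat, and the Gnas transcripts, cannot be told apart by counts that ignore strand, and all the values for these genes are uncertain in that sense.

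At 4 weeks after DMM none of 33 imprinted genes tested passed an edgeR adjusted p of 0.05, against 0.0757% of all transcript rows (16 of 21140), and 5 had an unadjusted p under 0.05 against 13.7% of all rows. Meg3 was at 26.5, 13.4 and 10.8 in control and 9.08, 4.54 and 2.73 in DMM libraries at 4 weeks, and 18.5, 37.01 and 13.4 and 18.7, 33.5 and 27.4 at 12 weeks (CPM), and every DMM library was below every control library at 4 weeks. Its log2 change was -1.63 ± 0.49 (SE, adjusted p = 0.277). Skeletal muscle markers were also lower in the 4-week DMM libraries, as given above, and with the muscle score as a covariate the log2 change of Meg3 was 0.18. Snrpn was at 19.9, 8.21 and 6.32 in control and 5.99, 5.303 and 6.04 in DMM libraries at 4 weeks, and 2.48, 6.49 and 7.41 and 11.2, 5.27 and 5.15 at 12 weeks, with a log2 change of -0.99 ± 0.41 (SE, adjusted p = 0.358), which was 0.13 with that covariate. The muscle score did not overlap between limbs at 4 weeks (mean log2 CPM of 8.34 to 10.3 in control and 5.002 to 7.35 in DMM libraries), so limb and score cannot be told apart in that fit. In it 26 of 33 imprinted genes were higher in DMM libraries (52.3% of all rows), and rows at an unadjusted p under 0.05 fell from 2891 to 654. Without the covariate 16 genes were higher and 17 lower at 4 weeks, with a median log2 change of -0.015, against 47.5% of all rows higher. Airn was at 2.57, 1.54 and 1.62 in control and 2.85, 4.099 and 4.54 in DMM libraries at 4 weeks, and 1.21, 1.304 and 0.566 and 2.03, 2.38 and 1.19 at 12 weeks, with 0.998 ± 0.32 (SE, adjusted p = 0.298). Grb10, a growth factor receptor adaptor, was at 41.7, 44.8 and 31.1 in control and 54.3, 56.2 and 57.8 in DMM libraries at 4 weeks, and 28.8, 27.1 and 18.3 and 34.8, 34.7 and 19.4 at 12 weeks, with 0.51 ± 0.19 (SE, adjusted p = 0.332). Sgce had 0.70 ± 0.28 (SE, adjusted p = 0.355). The groups did not overlap for 6 genes, 3 above (Airn, Grb10 and Sgce) and 3 below (Meg3, Snrpn and Zdbf2), against 21.4% of all rows.

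At 12 weeks none of 32 genes passed, against 0.00476% of all rows. An unadjusted p under 0.05 was found for 5, all higher in DMM libraries, against 16.3% of all rows in either direction. These were Cdkn1c at 0.90 ± 0.25 (SE, adjusted p = 0.219), Gnas at 0.63 ± 0.23 (SE, adjusted p = 0.274), Sgce at 0.56 ± 0.21 (SE, adjusted p = 0.275), Dlk1 at 1.42 ± 0.55 (SE, adjusted p = 0.278) and Mkrn3, a zinc finger protein that restrains puberty, at 0.86 ± 0.34 (SE, adjusted p = 0.284). Mkrn3 levels were 1.38, 1.12 and 0.571 in control and 1.19, 0.255 and 0.399 in DMM libraries at 4 weeks, and 0.864, 0.986 and 0.566 and 1.45, 1.74 and 1.19 at 12 weeks (CPM). In all, 25 of 32 genes were higher and 7 lower, with a median log2 change of 0.39 against 0.01 over all rows. For 9 genes (Blcap, Cdkn1c, Dlk1, Gnas, Igf2, Mkrn3, Rasgrf1, Sgce and Zdbf2) the 3 DMM libraries all exceeded the 3 control libraries, against 10.2% of all rows, and for 0 they were all below, against 8.73%. The sum of the osteoblast markers was higher in DMM libraries in both weeks, while their mean log2 CPM overlapped between limbs at 4 weeks (8.53 to 9.03 in DMM and 8.44 to 8.74 in control libraries). All 7 fibroblast and synovium markers were detected, and their mean log2 CPM was 6.89 to 7.11 in DMM against 5.39 to 6.45 in control libraries at 4 weeks and 5.99 to 6.64 against 5.13 to 5.49 at 12 weeks. In sum they were at 4327 to 7036 against 2308 to 4236 CPM and at 5851 to 8343 against 4129 to 8374 CPM. The part of these cell types in the limb values was not tested.

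Over both weeks, with week in the model, none of 35 genes passed (0.624% of all rows). At an unadjusted p under 0.05, 6 were higher, against 16.7% of all rows in either direction. They were led by Airn at 0.93 ± 0.26 (SE, adjusted p = 0.149), Sgce at 0.62 ± 0.19 (SE, adjusted p = 0.17) and Dlk1 at 1.13 ± 0.43 (SE, adjusted p = 0.227). Kcnq1ot1 was at 39.2, 30.7 and 34.7 in control and 36.4, 44.8 and 47.9 in DMM libraries at 4 weeks, and 37.1, 40.5 and 25.2 and 41.6, 49.7 and 39.6 at 12 weeks (CPM), with 0.33 ± 0.13 (SE, adjusted p = 0.255). Mest was at 3.05, 4.404 and 6.76 in control and 6.703, 8.41 and 5.92 in DMM libraries at 4 weeks, and 2.66, 3.17 and 3.395 and 4.32, 3.94 and 3.303 at 12 weeks, with 0.45 ± 0.19 (SE, adjusted p = 0.271). Of the 35 genes 27 were higher in DMM limbs and 8 lower, against 48.0% of all rows higher, with a median log2 change of 0.18 against -0.02 over all rows.

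The limb effect did not pass the test of a difference between weeks for any of 35 genes (0% of all rows), although 7 had an unadjusted p under 0.05 against 12.3%. Rtl1, a retrotransposon-derived gene of the Dlk1 domain, was at 0.286, 0.200 and 0.133 in control and 0.0297, 0.139 and 0.0613 in DMM libraries at 4 weeks, and 0.0701, 0.0477 and 0.0269 and 0.147, 0.297 and 0.382 at 12 weeks (CPM), which are 1 to 17 counts, and had an interaction of 3.75 ± 0.94 (SE, adjusted p = 0.405). Zdbf2, a zinc finger gene, was at 0.572, 0.460 and 0.362 in control and 0.326, 0.232 and 0.245 in DMM libraries at 4 weeks, and 0.304, 0.270 and 0.108 and 0.336, 0.631 and 0.494 at 12 weeks, all DMM libraries below control at 4 weeks and all above at 12 weeks, with 1.85 ± 0.64 (SE, adjusted p = 0.405). Meg3 had 1.85 ± 0.68 (SE, adjusted p = 0.405), Igf2 1.45 ± 0.64 (SE, adjusted p = 0.405) and Gnas 0.75 ± 0.33 (SE, adjusted p = 0.405).

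**Figure D4:**
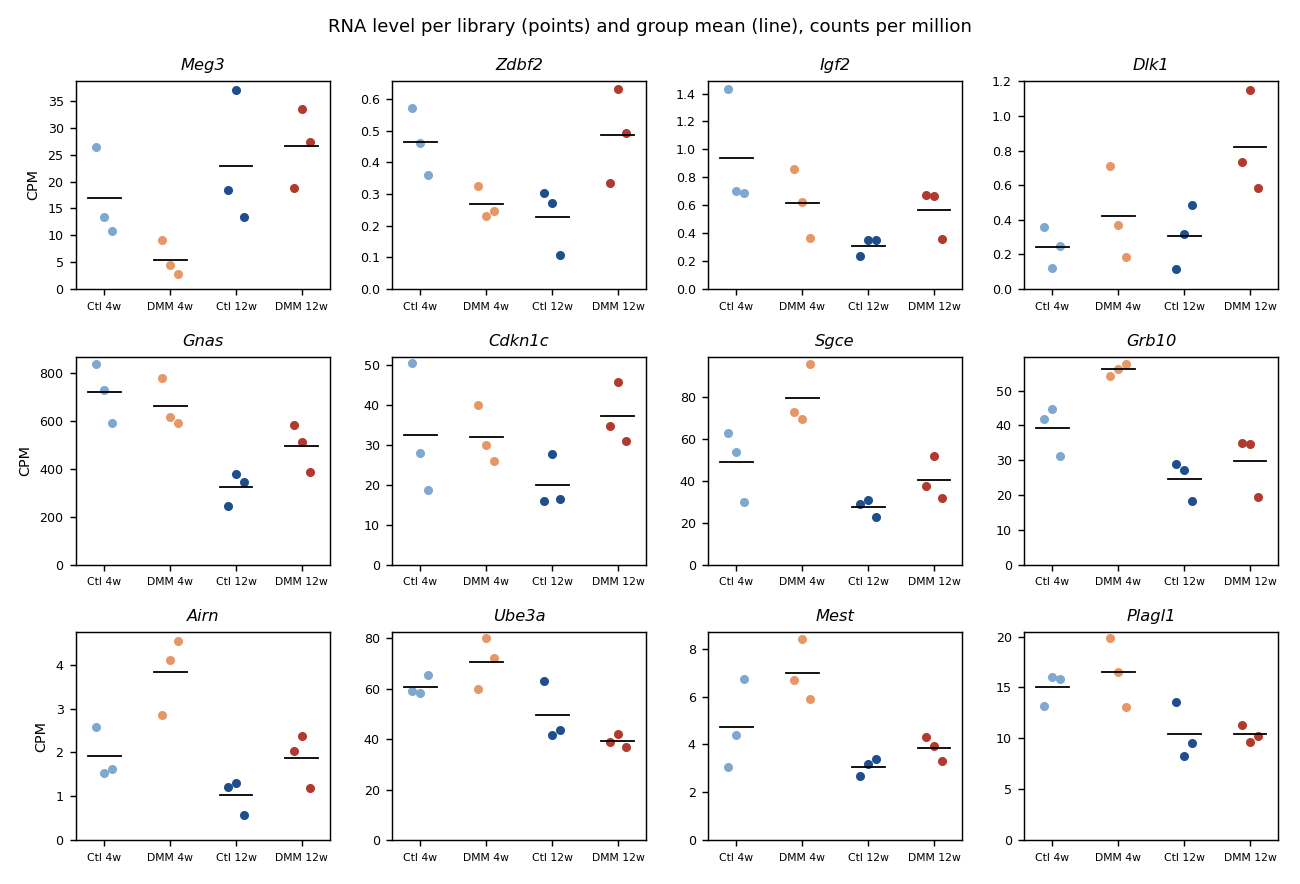
RNA levels (vertical axes, CPM) of 12 imprinted genes in the 12 libraries (points) by group (horizontal axes), with group means (lines). Meg3 is lowest in the 4-week DMM libraries, Sgce is higher in DMM than in control libraries in both weeks, and Ube3a, Grb10 and Mest are lower at 12 than at 4 weeks in DMM libraries.

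The clearest differences lay between weeks in the DMM limbs. Of 33 genes tested 7 passed, 1 higher and 6 lower at 12 weeks, against 23.8% of all rows, and 10 had an unadjusted p under 0.05 against 39% of all rows. The 7 of 33 are near that background. Meg3 rose by 2.29 ± 0.41 (SE, adjusted p = 0.00757), from 2.73 to 9.08 CPM at 4 weeks to 18.7 to 33.5 CPM at 12 weeks, and passed in all 13 other fits, that with the muscle score included. Ube3a, the ubiquitin ligase of Angelman syndrome, fell with -0.84 ± 0.17 (SE, adjusted p = 0.0108), from 59.97, 80.2 and 72.1 CPM at 4 weeks to 38.99, 41.9 and 37.1 CPM at 12 weeks. Sgce fell with -0.98 ± 0.22 (SE, adjusted p = 0.0147), and Grb10 with -0.92 ± 0.23 (SE, adjusted p = 0.0204). Mest fell with -0.86 ± 0.24 (SE, adjusted p = 0.027), Plagl1 with -0.66 ± 0.21 (SE, adjusted p = 0.0417) and Airn with -1.04 ± 0.33 (SE, adjusted p = 0.0443). In the same DMM libraries the osteoblast sum was lower at 12 weeks (3892 to 5577 against 6800 to 8027 CPM), while the mean log2 CPM of these markers overlapped (8.70 to 9.07 against 8.53 to 9.03). The sum of the 6 neutrophil and marrow markers, all detected, was 17285 to 28011 against 11747 to 17860 CPM. The 12 chondrocyte markers summed to 15288 to 23392 at 12 weeks against 8588 to 12589 CPM at 4 weeks, and their mean log2 CPM overlapped (7.17 to 7.69 against 6.59 to 7.21). All 4 adipocyte markers were detected, at 70.9 to 108 against 152 to 237 CPM, and all 4 endothelium markers, at 51.5 to 76.5 against 107 to 131 CPM. The fibroblast and synovium markers had a mean log2 CPM of 5.99 to 6.64 against 6.89 to 7.11, although their sums overlapped. The part of these cell types in the changes was not tested. Commd1, next in order, had -0.52 ± 0.20 (SE, adjusted p = 0.0767) and did not pass. Ube3a, Sgce and Grb10 passed in 12 of 13 other fits each, Mest in 9, and Plagl1 and Airn in 4. The number of genes that passed was 2 without DMM replicate 2 of week 4 (1995 of 21052 rows in all), and 4 without DMM replicate 2 or replicate 3 of week 12 (2756 of 21408 and 2017 of 21055 rows).

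In control limbs none of 33 genes passed between weeks (0% of all rows). At an unadjusted p under 0.05, 6 were lower and 0 higher, against 21.2% of all rows in either direction. Gnas was nearest at -1.14 ± 0.26 (SE, adjusted p = 0.0925). Nnat had -3.68 ± 0.91 (SE, adjusted p = 0.108), from 3.98, 2.42 and 0.895 CPM at 4 weeks to 0.0467, 0.0795 and 0.458 CPM at 12 weeks, with 2 and 5 counts in the lower control libraries at 12 weeks. Igf2 had -1.55 ± 0.43 (SE, adjusted p = 0.123), Grb10 -0.65 ± 0.23 (SE, adjusted p = 0.176), Sgce -0.80 ± 0.28 (SE, adjusted p = 0.177) and Ndn -1.14 ± 0.43 (SE, adjusted p = 0.198). Igf2r and Plagl1 followed with -0.29 ± 0.13 (SE, adjusted p = 0.255) and -0.50 ± 0.23 (SE, adjusted p = 0.256). Every 12-week control library was below every 4-week control library for 9 genes and above for 0, against 12.9% of all rows below and 14.4% above. Of the 33 genes 25 were lower and 8 higher at 12 weeks, with a median log2 change of -0.47 against -0.02 over all rows. Without control replicate 3 of week 4, 5 of 34 genes passed, all lower, and so did 3926 of all 21502 rows, 2091 higher and 1835 lower. In these control libraries the osteoblast sum was 2041 to 3303 CPM at 12 weeks against 3499 to 5742 at 4 weeks, with overlapping mean log2 CPM (7.93 to 8.61 against 8.44 to 8.74), and the neutrophil and marrow sum 20770 to 36032 against 7893 to 23054 CPM, and their part was not tested. The 2 week comparisons share no library, and the difference between them is the interaction given above, which no gene passed.

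**Figure D5:**
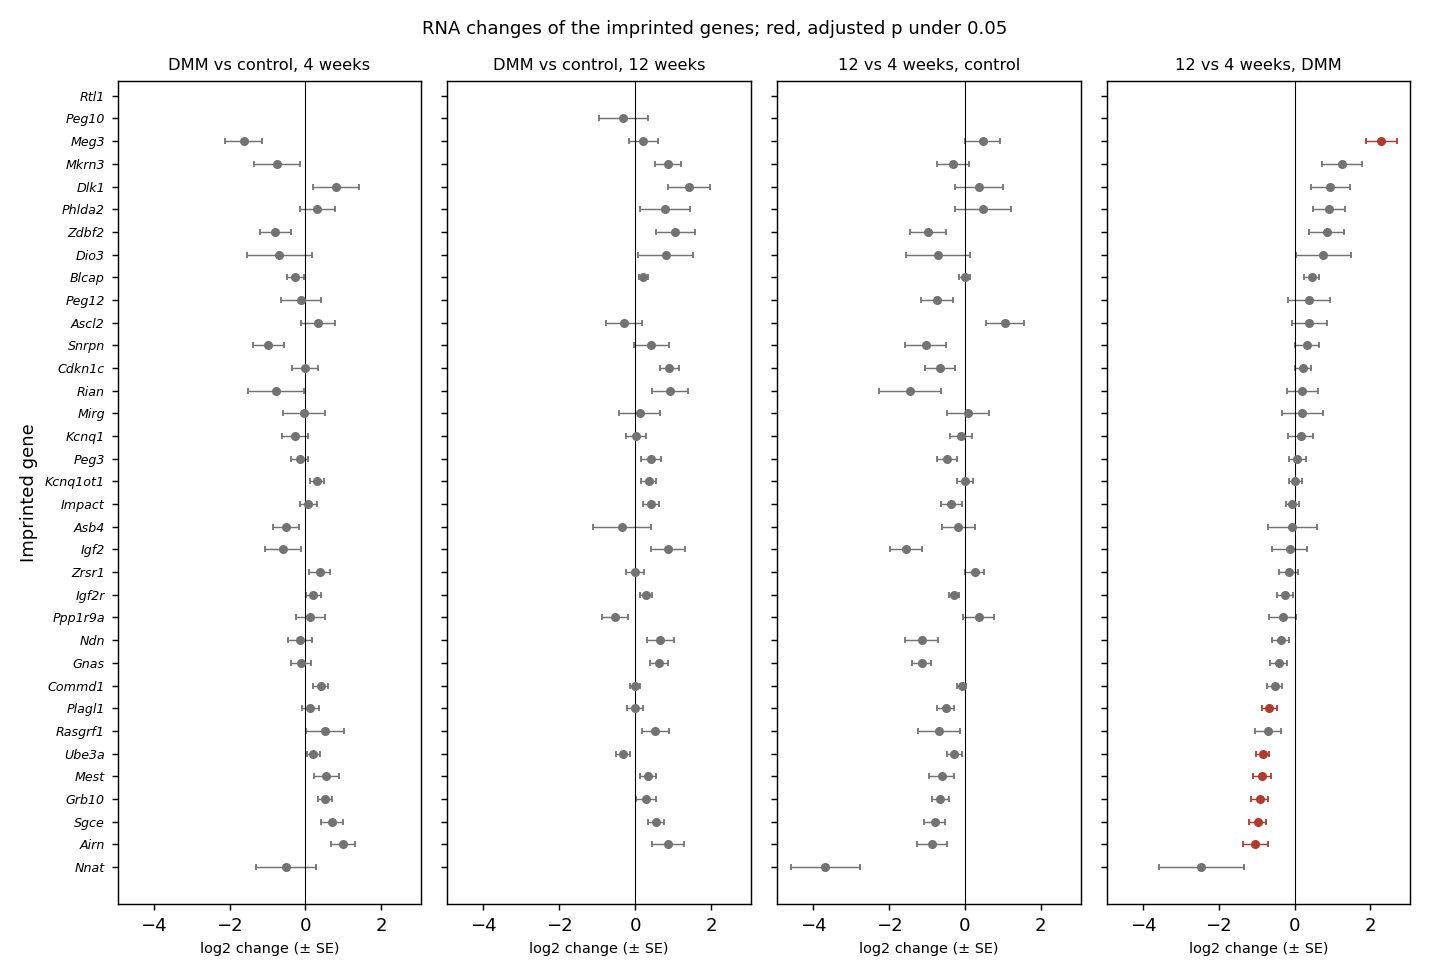
Log2 change and SE (horizontal axes) of each imprinted gene tested (vertical axis) in 4 comparisons, with genes that passed an edgeR adjusted p of 0.05 in red. Red points appear in the comparison of weeks in DMM limbs, where Meg3 is higher and 6 genes are lower at 12 weeks.

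Other imprinted genes came from a list of 28, of which 22 could be tested. Only between weeks in DMM limbs did any pass, 2 of 22 against 23.8% of all rows. Pon3 and Tfpi2 of the Peg10 domain were lower there, with -0.86 ± 0.22 (SE, adjusted p = 0.0204) and -1.23 ± 0.39 (SE, adjusted p = 0.0448). Of 13 genes that keep imprints, 12 were tested. Dnmt1, the maintenance methyltransferase, had -0.83 ± 0.23 (SE, adjusted p = 0.138) in DMM against control limbs over both weeks, and Uhrf1, which recruits it, had -0.60 ± 0.21 (SE, adjusted p = 0.214). Between weeks in DMM limbs Uhrf1 rose by 1.19 ± 0.26 (SE, adjusted p = 0.0122) and the de novo methyltransferase Dnmt3a by 0.64 ± 0.18 (SE, adjusted p = 0.0291), while Zfp57 with 0.34 ± 0.45 (SE, adjusted p = 0.601) and Trim28 with 0.26 ± 0.20 (SE, adjusted p = 0.368) did not pass, which makes 2 of 12 against the same 23.8%.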

How the data were processed

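RNA libraries were sequenced by the authors and aligned to mm10 with STAR, and featureCounts gave the deposited counts of reads per RefSeq transcript, unnormalized and without regard to strand. For RRoxBS, the authors used Bismark (CASAVA 2.17 is also in the submitters' processing notes), and the deposited files give coverage and the percent of methylated reads per cytosine, as 5mC in oxBS and 5mC plus 5hmC in BS libraries. Library kit descriptions differ between the labels and the methods of the study.

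From the counts, edgeR 4.0.16 (quasi-likelihood, TMM, filter on low counts) was run on all rows within a week, over both weeks with week as a term, for the interaction and between weeks within a limb, with Benjamini-Hochberg adjustment and DESeq2 1.42.0 as alternative. CpGs with at least 10 reads were tested singly by a likelihood ratio test on pooled reads, and as clusters of at least 5 cytosines with limma 3.58.1 on log2 ratios with 1 read added. R was 4.3.3 and Python 3.11.15. The tests were run on simulated data first, with changes put into transcripts with a mean above 1 CPM. Of 100 changes of 1 on the log2 scale, edgeR recovered 19 at 4 weeks, 65 over both weeks and 13 between weeks in DMM limbs. Of 100 changes of 2 it recovered 83, 96 and 94. Smaller changes can therefore be missed where no gene passed. Per library, RNA totals were 27706547 to 62737656 counts and oxBS median coverage 22 to 102 reads, and intervals of counting were not computed because the replicate spread was used. Control and DMM limbs came from the same mice and carry the same replicate numbers in the labels, but the sources used here do not say that pools of equal number hold the same animals. Deviations of equal-numbered libraries correlated at -0.548 to 0.359 in RNA. In 5mC they correlated at 0.613, 0.529 and 0.012 at 4 weeks and at -0.025 to 0.037 at 12 weeks. Control 1 with DMM 2 and control 2 with DMM 1 had -0.498 and -0.646 in 5mC at 4 weeks. The main fits did not treat equal numbers as pairs, and fits with the number as a block are given beside them. P-values measure the spread between pools of 3 knees, apart from those of single cytosines. The latter come from pooled reads and leave out the spread between libraries. Members were named as the 5 of lowest p in each limb comparison, the 8 of lowest p in each week comparison, the 6 of highest CPM per kb, and H19, Igf2, Dlk1 and Meg3, and all near-50 clusters were given. The members and the gene lists were chosen with earlier results of these data known. Sequences are from RefSeq and GRCm38.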

Additional observations from a re-analysis of the deposited data

Results flagged for a closer look

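Zdbf2 RNA moved in opposite directions in the weeks. All 3 DMM libraries were below all 3 control libraries at 4 weeks and above them at 12 weeks, and the interaction of limb and week was 1.85 on the log2 scale (edgeR unadjusted p = 0.0139, adjusted p = 0.405), which does not pass the adjusted threshold. The gene had 4 to 24 counts per library. Groups of 3 libraries were too small to test for outlying libraries.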

How the results depend on the processing

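Of 198 recomputed counts and means, 153 stayed within the limits set for a change and 45 moved. Of 819 recomputed values of single genes, cytosines and clusters, 711 kept direction and side of the threshold, 65 lost a call, 41 gained one and 2 reversed. The reversed ones were Meg3 and Snrpn at 4 weeks with the skeletal muscle score as a covariate, at 0.18 and 0.13 on the log2 scale, and the cause was not tested. Imprinted genes that passed in RNA were 1 at 4 weeks, 1 at 12 weeks and 2 over both weeks in DESeq2, against 0 in edgeR, and 3 between weeks in control limbs, where DESeq2 called 2593 of 25538 rows. Over all rows at 4 weeks DESeq2 called 747 and edgeR 16, at 12 weeks 861 and 1, and over both weeks 763 and 135. With all 12 libraries in 1 fit, 1 gene passed between weeks in control and 4 in DMM limbs, beside 1229 and 5109 of 21618 rows. Leaving out 1 library gave 0 to 1 genes at 12 weeks, where the 1 came without control replicate 2 (860 of 21261 rows). It gave 0 to 5 genes between weeks in control limbs and 2 to 10 in DMM limbs, where 10 came without DMM replicate 1 of week 4 (7441 of 21380 rows). Cytosines that passed were 0 to 3 at 4 weeks with 1 library left out, with 3 and 3038 in all without control replicate 2. At 12 weeks they were 0 to 7 (1640 and 4095 of 1273121 in all), 1 at a coverage of at least 20 (1520 in all) and 1 at q under 0.01 (1871 in all). There were 0 with overdispersion (0 in all) and 1 without control replicate 2 and DMM replicate 1 (1388 in all). The labels of these left-out libraries have another style than those of the other 12-week DNA libraries, and the reason is not stated. The overdispersion test recovered 0 of 200 changed cytosines in simulation, so its count says nothing about stability. Near-50 clusters numbered 34 to 36 without 1 library and 19 with at least 10 cytosines. With 1 library left out, 0 to 6 of them passed between limbs over both weeks (0 to 1682 of all near-50 clusters of the genome). At 12 weeks 0 to 2 passed so (0 to 221 of all near-50 clusters). On the percent scale 0 of them passed at 12 weeks (175 of all near-50 clusters), and 0 at a coverage of at least 20 (169). Without control replicate 2 and DMM replicate 1, 0 of them and 0 of all clusters passed. Between weeks 0 to 5 of them passed with 1 library left out (108 to 1103 of all near-50 clusters) and 2 on the percent scale (373). Mean 5hmC was 3.17 to 3.57 points without 1 library and 6.52 with negative values set to 0.

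With the replicate number as a block, 1 gene passed in RNA at 4 weeks (354 of 21140 rows, against 16 without the block) and 1 at 12 weeks (734 of 21010, against 1), 0 over both weeks and 0 for the interaction. In the same blocked fits 5 clusters passed over both weeks (3922 in all), and 0 at 4 weeks and at 12 weeks (0 in all). Of the cytosines 0 passed at 4 weeks (53 in all) and 2 at 12 weeks (2696 in all). Equal numbers were not shown to pair the samples. Depth limited Igf2, Dlk1, Rtl1 and Zdbf2, whose counts stayed at or under 60 per library. The same held for Rasgrf1 (13 to 53 counts), Mirg, Dio3, Peg12, Phlda2, Ascl2, Peg10, Zim1, Usp29 and Magel2.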
